A study of Mus musculus with 60 samples.

Results

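The cyclins and cyclin-dependent kinases that drive the cell cycle were examined in mouse pancreatic islets in which MYC was switched on or left off. The set held 10 listed genes: Ccnd1, Ccnd2, Ccnd3, Ccne1, Ccne2, Ccna2, Ccnb1, Ccnb2, Cdk1 and Cdk4. A gene entered when the array annotation gave at least a single probe set with that symbol alone, and the probe set with the widest interquartile range over the arrays stood for it. This gave 9 of the 10 genes, with 23 probe sets, out of 18193 named genes on the array. Ccnb1 had no such probe set in the annotation used and was not analysed here. All 23 probe sets passed the filter on spread, and 13176 named genes were tested beside them.

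Cyclins are the regulatory subunits that switch on cyclin-dependent kinases, and each type acts in its own stretch of the cell cycle. D-type cyclins pair with Cdk4 in G1 and begin to inactivate the retinoblastoma protein. E-type cyclins act at entry into S phase, cyclin A in S phase and G2, and B-type cyclins with Cdk1 at entry into mitosis. Adult beta cells rarely divide, and cyclin D2 and Cdk4 are known from mouse mutants to be needed for normal beta cell mass. MYC is a transcription factor that pushes many cell types into the cycle.

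All mice were male CBA-C57BL/6 animals carrying pIns-MYCERTAM, in which the insulin promoter drives, in beta cells, MYC joined to a changed oestrogen receptor domain. In MycON mice the fusion was activated with 1 mg of 4-hydroxytamoxifen daily, and MycOFF mice received peanut oil. Each state was combined with exendin-4, a GLP-1 receptor agonist given at 50 µg/kg from 2 days before, or with water. Islets were taken by laser from frozen sections at 4, 8, 16, 32 and 72 h, so there were 20 groups. Of 60 arrays, 52 were kept by the submitters: 25 MycON arrays (13 with water, 12 with exendin-4) and 27 MycOFF arrays (12 with water, 15 with exendin-4). A group held 2 or 3 of them. Mice were 8 to 12 weeks old by a characteristics label, and the protocol text says 3 months. No fusion-free group received 4-hydroxytamoxifen, so an effect of the drug apart from MYC cannot be told apart from the MYC effect. The labels call the arrays biological replicates without naming animals, so the p-values measure the spread between these arrays. In whole islets, fewer cells of a type and less RNA per cell cannot be told apart.

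Each deposited value is on a log2 scale, relative to the median of that probe set over the 60 arrays. A value of 0 is therefore a middling array and not absence, and levels of different genes cannot be compared. The widest spread within a kept array was in MycOFF exendin-4 16 h replicate 3 (SD 0.946) and MycOFF exendin-4 72 h replicate 2 (SD 0.807). The labelled tissue was checked on 8 beta cell markers, whose mean per kept array lay between -1.19 and 1.39. In the 8 arrays left out by the submitters it lay between -7.14 and -0.90.

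The promoter sequences in front of 3 of the genes are shown as examples of motif matches. These 3 were picked with the results below known, so the sequences cannot link a motif to a response. They are the 250 bases before the gene start in RefSeq for GRCm38.p6, written 5′ to 3′ along the gene's strand, and the promoter table held 6 of the 10 genes. Motif matches are in capitals: CCAAT boxes in Cdk1 and Ccnb2, TTTGAA in the same windows, 2 forms of the E2F motif in Cdk1, and CACGTG in Cdk4.
Cdk1: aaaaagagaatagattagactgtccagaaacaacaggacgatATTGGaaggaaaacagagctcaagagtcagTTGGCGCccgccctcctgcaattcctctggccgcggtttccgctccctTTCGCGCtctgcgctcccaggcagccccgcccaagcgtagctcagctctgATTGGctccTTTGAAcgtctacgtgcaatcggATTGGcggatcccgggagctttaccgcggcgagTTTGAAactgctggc
Ccnb2: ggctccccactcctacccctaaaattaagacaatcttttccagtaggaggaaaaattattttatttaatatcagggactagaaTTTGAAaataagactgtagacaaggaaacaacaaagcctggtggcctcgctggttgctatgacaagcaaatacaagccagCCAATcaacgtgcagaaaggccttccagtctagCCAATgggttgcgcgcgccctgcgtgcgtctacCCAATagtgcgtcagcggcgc
Cdk4: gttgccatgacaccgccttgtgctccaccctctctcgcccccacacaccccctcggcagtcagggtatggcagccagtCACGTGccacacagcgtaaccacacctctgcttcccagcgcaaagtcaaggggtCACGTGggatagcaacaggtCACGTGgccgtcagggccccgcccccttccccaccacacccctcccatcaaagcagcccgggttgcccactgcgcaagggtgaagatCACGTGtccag
The Cdk1 window lies at chr10:69352913-69353162 on the minus strand, that of Ccnb2 at chr9:70421555-70421804 on the minus strand, and that of Cdk4 at chr10:127063285-127063534 on the plus strand. Each lies directly upstream of the annotated gene.

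CCAAT, the box read by the factor NF-Y, occurred 3 times in the Cdk1 window and 3 times in that of Ccnb2. Matches on both strands were counted, so ATTGG in the Cdk1 window counts as a match on the opposite strand. At least 3 copies were found in 2.79% of the 32851 promoter windows of the same length, and at least 1 copy in 33.8%. TTTGAA, the letters of the CHR element of genes expressed in G2 and mitosis, began 71 and 15 bases before the start of Cdk1 and 167 bases before that of Ccnb2. For Ccnb2, 1 further TTTGAA match lay in the 50 bases after the start, outside the window shown. TTTGAA was present in 16% of all windows. Cdk1 also held 1 match of the E2F motif form TTCGCGC, which was found in 1.28% of windows. It held 1 match of a further form, spelled TTGGCGC, found in 1.97% of windows. No 2 matches overlapped in these 3 windows.

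CACGTG, the E-box that MYC binds with its partner MAX, occurred 4 times in the Cdk4 window, beginning 172, 118, 98 and 11 bases before the start. It reads the same on both strands and was counted once per place. At least 1 copy was present in 6.02% of windows and at least 4 copies in 7 of the 32851. None of the 8 motifs searched had a match in the 250 bases before Ccne1, which says only that these letters are absent from that window. A window of Ccnd3 held 1 CCAAT match, and that of Ccnb1 held 2 CCAAT matches and 1 match of TTGGCGC. The motifs searched beside those named were TTCGAA, a variant of the CHR letters, with the E2F form TTCCCGC and a last E2F form spelled TTGCCGC. A match describes the letters and no binding was measured.

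The E-type cyclins, cyclin A2, cyclin B2 and Cdk1 were higher in MycON islets, while the D-type cyclins and Cdk4 did not pass the test. Averaged over both injections and the 5 times, 5 of the 9 genes were higher in MycON islets at a Benjamini-Hochberg adjusted p under 0.05 in limma, and none was lower. Of all 13176 genes tested, 15.4% passed in either direction and 9.93% were higher. The median log2 difference over the 9 genes was 1.09, beside -0.03 over all genes tested.

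**Figure D1:**
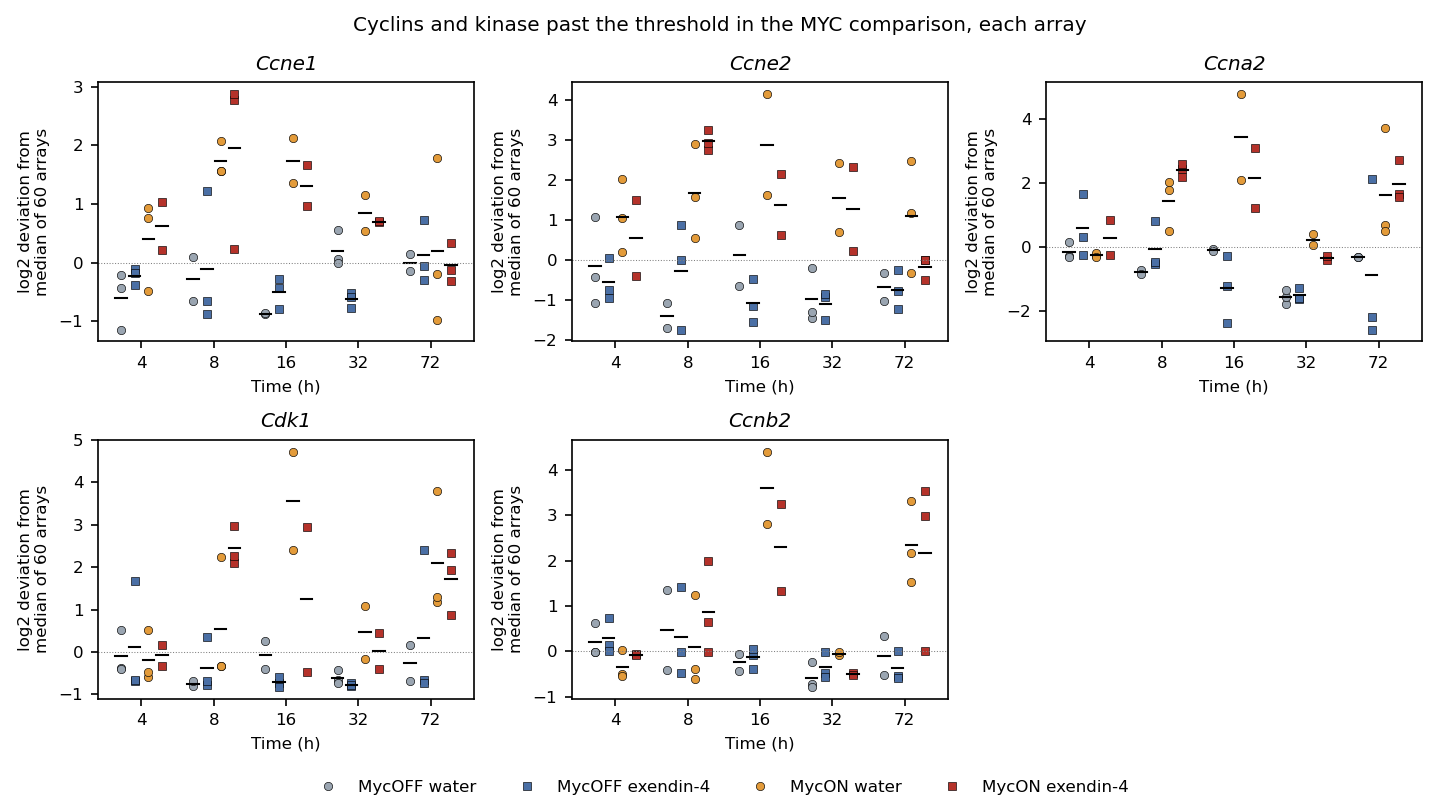
Log2 deviation from the median of the 60 arrays (y axis) of Ccne1, Ccne2, Ccna2, Cdk1 and Ccnb2 in each of the 52 kept arrays, by time in h (x axis, evenly spaced), with colour for MYC state and injection and a short line at the group mean. MycON arrays lie highest at 8 and 16 h for Ccne1 and Ccne2 and at 16 and 72 h for Ccnb2, where the highest array reads 4.40.

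Ccne2, the cyclin E2 that binds Cdk2 at the start of S phase, showed the largest difference of the 9 genes. MycOFF arrays ran from -1.75 through a median of -0.87 to 1.07 (n = 27), and MycON arrays from -0.52 through 1.49 to 4.14 (n = 25). All 25 MycON arrays lay above the MycOFF median over all times together, and 14 above the highest MycOFF array. The share of all genes with such a separation is not given. At 4 h MycON arrays read 1.04, 2.01 and 0.18 for water and -0.42 and 1.49 for exendin-4. At 8 h they read 2.90, 1.56 and 0.53 for water and 2.74, 3.24 and 2.91 for exendin-4. The 3 exendin-4 arrays at 8 h lay close together and above every MycOFF array. At 16 h the values were 4.14 and 1.62 for water and 0.61 and 2.14 for exendin-4. At 32 h they were 0.68 and 2.41 for water and 2.31 and 0.22 for exendin-4, and the 4 MycON arrays did not overlap the 6 MycOFF arrays. By 72 h the values were -0.34, 1.17 and 2.47 for water and -0.52, -0.02 and 0.00 for exendin-4, and the groups overlapped. The mean difference was 2.11 ± 0.26 (SE), a fold of 4.32 (adjusted p = 3.7e-07, limma).

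Ccne1, the cyclin E1 of the same step, had a mean difference of 1.24 ± 0.19 (SE), a fold of 2.36 (adjusted p = 1.7e-05, limma). MycOFF arrays ran from -1.14 through -0.29 to 1.22, and MycON arrays from -0.98 through 0.94 to 2.87. At 4 h MycON arrays read 0.94, -0.48 and 0.76 for water and 1.03 and 0.21 for exendin-4, so 4 of 5 lay above the highest MycOFF array of that time, -0.10. At 8 h they read 1.56, 1.57 and 2.08 for water and 2.78, 0.23 and 2.87 for exendin-4. At 16 h the values were 2.12 and 1.35 for water and 0.97 and 1.66 for exendin-4, all above the 5 MycOFF arrays, which reached -0.27. Values were lower again at 32 h, with 1.16 and 0.54 for water and 0.69 and 0.71 for exendin-4. At 72 h they were -0.98, -0.20 and 1.78 for water and -0.12, -0.32 and 0.33 for exendin-4, spread over the MycOFF range.

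Ccna2, the cyclin A2 of S phase and G2, was higher in MycON islets in the averaged comparison. MycOFF arrays ran from -2.58 through -0.47 to 2.11, and MycON arrays from -0.41 through 1.22 to 4.77. At 4 h the MycON arrays read -0.29, -0.19 and -0.31 for water and 0.85 and -0.26 for exendin-4, overlapping the MycOFF arrays. At 8 h they read 2.04, 0.50 and 1.79 for water and 2.19, 2.44 and 2.59 for exendin-4. At 16 h the values were 4.77 and 2.09 for water and 1.22 and 3.09 for exendin-4, and none of the 5 MycOFF arrays exceeded -0.05. At 32 h MycON arrays were near 0, at 0.39 and 0.05 for water and -0.41 and -0.29 for exendin-4. They still lay above all 6 MycOFF arrays, whose highest was -1.29. At 72 h they read 0.69, 0.49 and 3.73 for water and 2.71, 1.66 and 1.55 for exendin-4. A single MycOFF array of that time, exendin-4 replicate 2, read 2.11 while the other 4 lay between -2.58 and -0.32. The mean difference was 1.90 ± 0.28 (SE), a fold of 3.74 (adjusted p = 7.8e-06, limma). All 25 MycON arrays lay above -0.47, the MycOFF median over all times together. At 4 h alone the MycON median of -0.26 lay below the MycOFF median of -0.05. The share of all genes with all MycON arrays above the pooled median is not given.

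Cdk1, the kinase that starts mitosis, ran from -0.82 through -0.66 to 2.40 in MycOFF arrays and from -0.58 through 1.09 to 4.73 in MycON arrays. At 4 h MycON arrays read -0.58, -0.47 and 0.52 for water and -0.32 and 0.16 for exendin-4. At 8 h the water arrays were split, at 2.25, -0.33 and -0.32, while the exendin-4 arrays read 2.10, 2.26 and 2.97. The difference between the injections at 8 h did not pass the test of the interaction (1.53 ± 1.20, adjusted p = 0.98, limma). At 16 h the values were 4.73 and 2.41 for water and -0.47 and 2.95 for exendin-4, so 1 of the 4 arrays stayed at the MycOFF level. That array, exendin-4 replicate 1, had a mean of 2.95 over the 8 acinar markers, 2.75 over the 8 macrophage markers and 1.79 over the 3 lymphoid markers, and the part of these cells in its value was not tested. At 32 h they were -0.16 and 1.09 for water and -0.41 and 0.45 for exendin-4. At 72 h all 6 MycON arrays lay above 4 of the 5 MycOFF arrays, at 1.17, 1.30 and 3.81 for water and 0.87, 2.34 and 1.94 for exendin-4. MycOFF exendin-4 72 h replicate 2 read 2.40, and the other 4 MycOFF arrays of that time reached 0.17. The mean difference was 1.50 ± 0.28 (SE), a fold of 2.83 (adjusted p = 1.9e-04, limma).

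Ccnb2, the cyclin B2 that binds Cdk1, was high in MycON islets at 16 and 72 h and not at 32 h. MycOFF arrays stayed close together, from -0.78 through -0.05 to 1.41, while MycON arrays ran from -0.60 through 0.03 to 4.40. At 4 h the MycON values were 0.03, -0.50 and -0.54 for water and -0.06 and -0.09 for exendin-4. At 8 h they were 1.24, -0.60 and -0.38 for water and -0.02, 0.64 and 2.00 for exendin-4. At 16 h they were 4.40 and 2.80 for water and 1.33 and 3.25 for exendin-4, all above the highest MycOFF array of 0.06. At 32 h they were -0.08 and -0.02 for water and -0.47 and -0.51 for exendin-4, inside the MycOFF range. At 72 h they read 1.52, 2.16 and 3.32 for water and 0.01, 3.53 and 2.99 for exendin-4, and 5 of 6 exceeded the highest MycOFF array of 0.33. The mean difference was 1.09 ± 0.23 (SE), a fold of 2.13 (adjusted p = 6.8e-04, limma).

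Cdk4, the kinase partner of the D-type cyclins, did not pass the test, with a mean difference of 0.69 ± 0.44 and a 95% interval from -0.20 to 1.57 (adjusted p = 0.33, limma). Its values were the most scattered of the 9 genes in MycOFF arrays (SD 1.71), from -3.32 through -0.36 to 1.84, against -2.80 through -0.32 to 2.27 in MycON arrays. At 16 h the MycON arrays read -1.22 and 0.90 for water and 1.19 and 1.86 for exendin-4. The MycOFF arrays of that time read -3.21 and -3.28 for water and 0.37, 1.45 and -3.32 for exendin-4. The difference at 16 h was 2.56 ± 1.04 (adjusted p = 0.20, limma), and the groups overlapped. The array with -3.32 is MycOFF exendin-4 16 h replicate 3, the one of widest spread, with an acinar marker mean of 3.12. The MycOFF water arrays with -3.21 and -3.28 had a spread of SD 0.421 and 0.529 and acinar means of 2.18 and -0.37. The part of spread or acinar cells in these Cdk4 values was not tested.

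The D-type cyclins, which link growth signals to Cdk4, showed no difference past the threshold on the probe sets that stood for them. Ccnd2 ran from -5.18 through 0.04 to 1.88 in MycOFF arrays and from -1.10 through 0.40 to 1.30 in MycON arrays, and its lowest value is again MycOFF exendin-4 16 h replicate 3. Its mean difference was 0.46 ± 0.34, with an interval from -0.22 to 1.15. Ccnd1 ran from -1.75 through 0.03 to 1.51 in MycOFF and from -1.55 through -0.03 to 2.14 in MycON arrays. Its difference was 0.23 ± 0.25, with an interval from -0.28 to 0.73. The ranges of both genes overlapped almost wholly between the states. Ccnd3 ran from -1.87 through -0.01 to 0.88 in MycOFF and from -1.17 through -0.02 to 2.15 in MycON arrays, with a difference of 0.21 ± 0.21 and an interval from -0.22 to 0.63. These intervals leave room for a rise of the size seen for Ccnb2 only in Ccnd2 among the D-type cyclins.

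**Figure D2:**
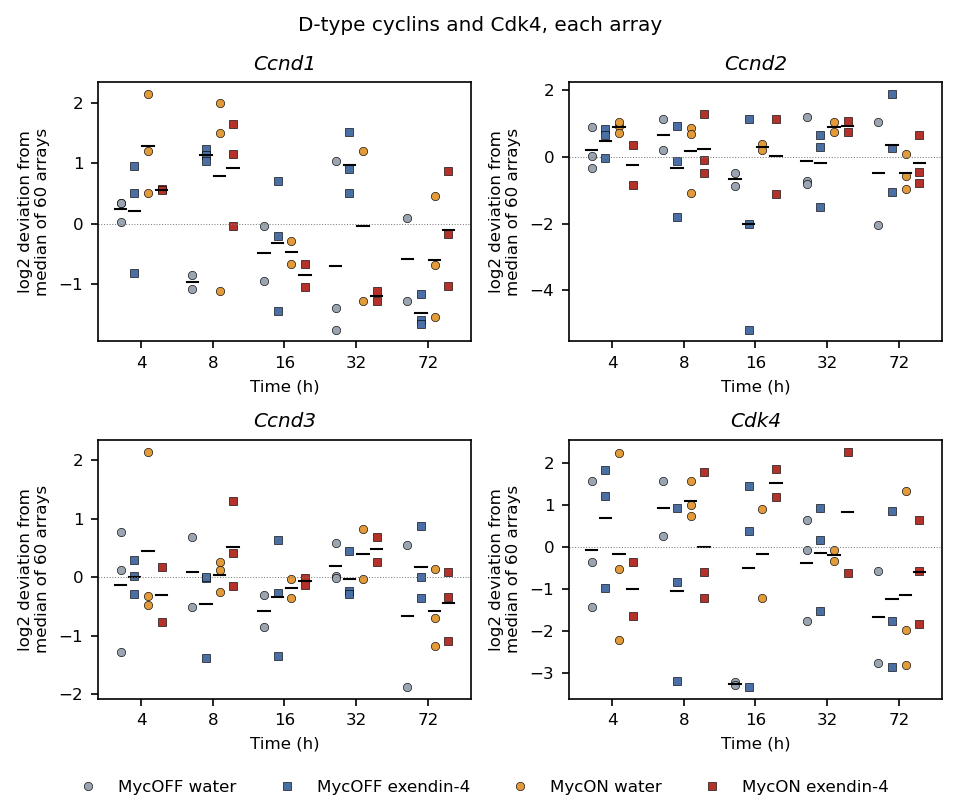
Log2 deviation from the median of the 60 arrays (y axis) of Ccnd1, Ccnd2, Ccnd3 and Cdk4 in each of the 52 kept arrays, by time in h (x axis, evenly spaced), with colour for MYC state and injection and a short line at the group mean. MycON and MycOFF arrays overlap at all 5 times in the 4 genes, and 1 MycOFF array reads -5.18 for Ccnd2.

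The genes measured by more than 1 probe set mostly gave the same picture, and Ccnd2 and Ccnd3 were exceptions. In a fit of all 34945 single-symbol probe sets, of which 8.07% passed the MYC comparison, both Ccna2 probe sets rose, by 1.90 ± 0.29 and 1.14 ± 0.22. Both Ccne1 probe sets rose as well, by 1.24 ± 0.19 and 1.32 ± 0.21. The 3 Cdk4 probe sets gave 0.69, 0.61 and 0.49 and followed each other across arrays (r = 0.93 and 0.97 with the chosen one, 52 arrays). Of the 7 Ccnd2 probe sets, the 1 of narrowest interquartile range passed at 0.53 ± 0.13 (adjusted p = 0.0087, limma) while the other 6 lay between 0.17 and 0.46 and did not. It followed the chosen one weakly (r = 0.17). For Ccnd3 the other 2 probe sets gave 0.02 and -0.07 and correlated at -0.11 and -0.24 with the chosen one, so its probe sets do not track each other. The 3 Ccnd1 probe sets gave 0.23, 0.33 and 0.19. Ccne2, Cdk1 and Ccnb2 rest on 1 probe set each.

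**Figure D3:**
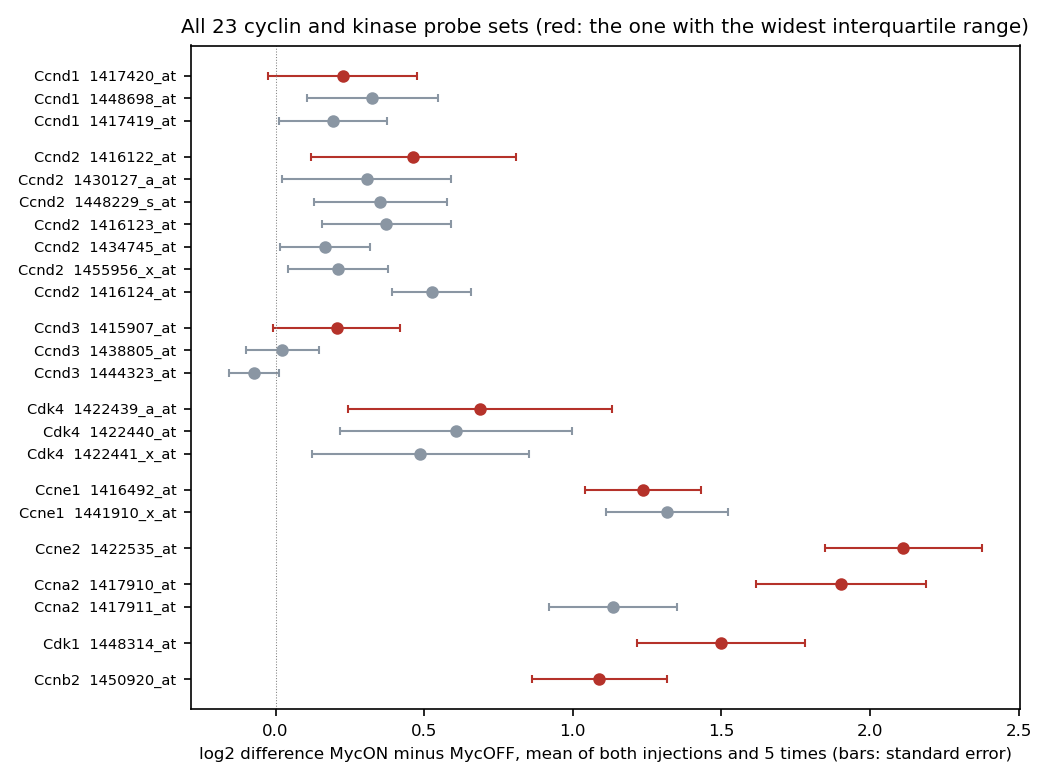
Log2 difference MycON minus MycOFF with its standard error (x axis), averaged over both injections and the 5 times, for each of the 23 probe sets (y axis), with the probe set of widest interquartile range in red. The probe sets of Ccne1, Ccne2, Ccna2, Cdk1 and Ccnb2 lie at or above 1.09, and those of the D-type cyclins and Cdk4 at or below 0.69.

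Both E-type cyclins, Ccna2 and Cdk1 passed the test at 8 h, and Ccnb2 passed at 16 and 72 h. At 4 h none of the 9 genes passed, against 2.29% of all genes tested, and Ccne2 and Ccne1 had the largest differences, 1.16 ± 0.56 and 0.93 ± 0.42 (limma, 2 of the 9 at an unadjusted p under 0.05). At 8 h 4 genes were higher, against 3.93% of all genes called: Ccne2 by 3.16 ± 0.56, Ccna2 by 2.35 ± 0.61, Ccne1 by 2.05 ± 0.42 and Cdk1 by 2.05 ± 0.60. Ccnb2 stood at 0.09 ± 0.49. At 16 h all 5 were higher, against 2.28%: Ccna2 by 3.48 ± 0.67, Ccnb2 by 3.13 ± 0.54, Cdk1 by 2.79 ± 0.67, Ccne2 by 2.61 ± 0.62 and Ccne1 by 2.21 ± 0.46. At 32 h Ccne2 alone passed, by 2.45 ± 0.60, against 3.31%, and Ccnb2 was at 0.19 ± 0.51. At 72 h Ccnb2 and Ccna2 passed, by 2.49 ± 0.49 and 2.41 ± 0.61, against 1.38%, while Ccne1 was at 0.02 ± 0.42.

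**Figure D4:**
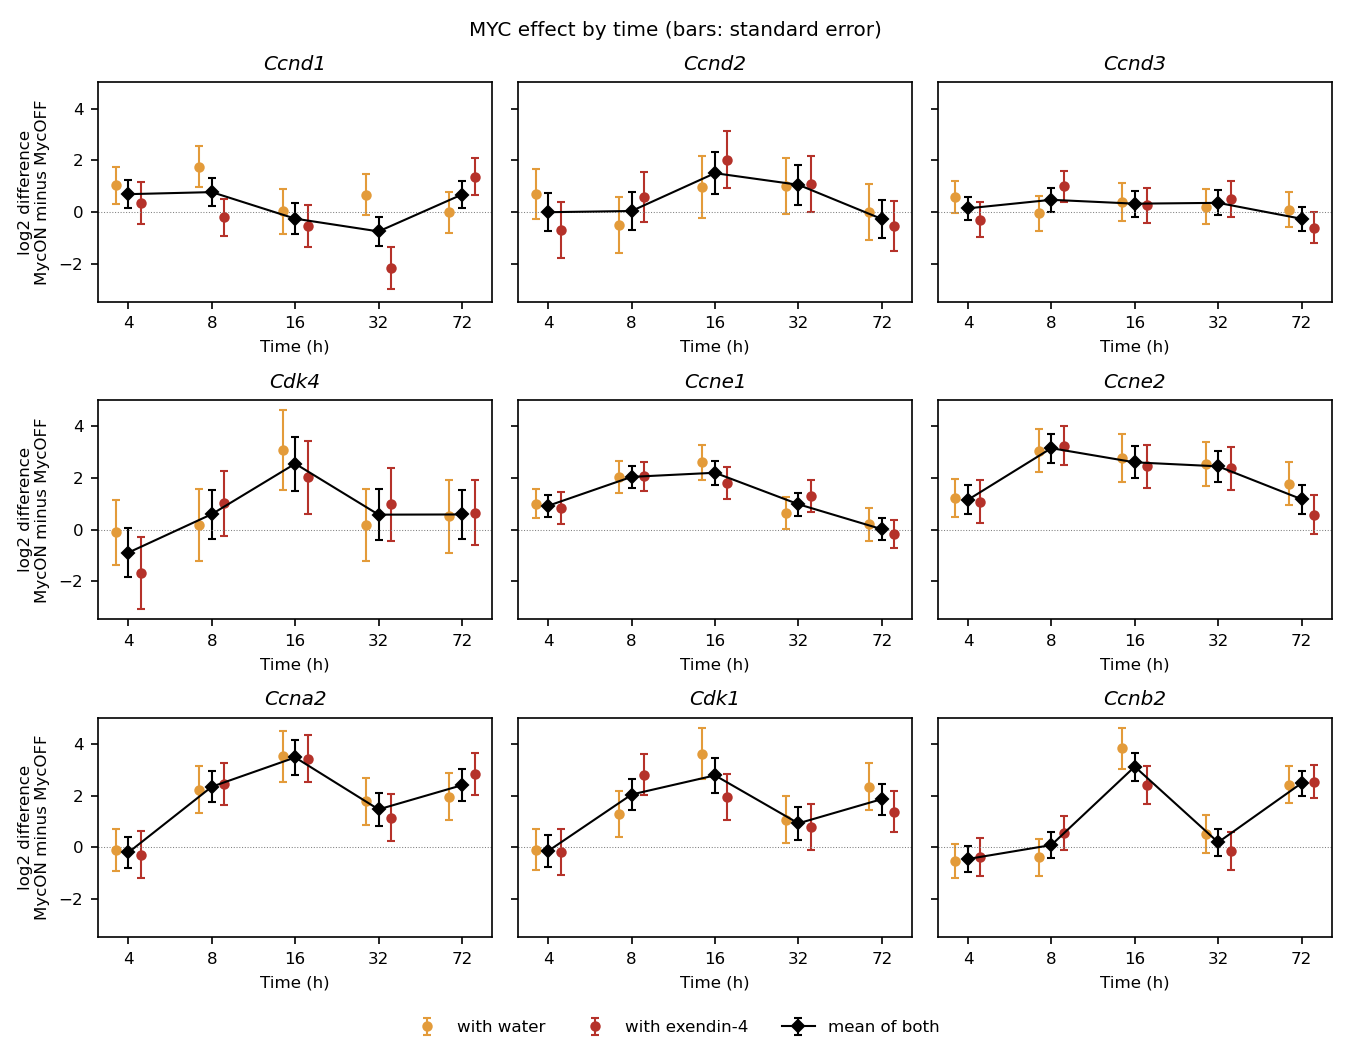
MYC effect as log2 difference MycON minus MycOFF with its standard error (y axis) at 4, 8, 16, 32 and 72 h (x axis, evenly spaced) for each of the 9 genes, with water, with exendin-4 and as the mean of both. Ccnb2 rises from 0.09 at 8 h to 3.13 at 16 h, stands at 0.19 at 32 h and at 2.49 at 72 h.

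These calls at single times rest on few arrays. Over all genes, leaving out each array in turn gave 214 to 600 calls at 8 h and 65 to 688 at 16 h. It gave 181 to 501 at 32 h and 67 to 350 at 72 h, so the calls over the whole array moved as well. Without MycON water 16 h replicate 1, which held the highest value of Ccne2, Ccna2, Cdk1 and Ccnb2, the count at 16 h was 1, with Ccnb2 left. It was 3 without MycOFF water 16 h replicate 3 or MycON exendin-4 16 h replicate 3. At 32 h it was 0 without MycON exendin-4 replicate 1 or MycON water replicate 3. The Cdk1 call at 8 h was lost without 20 of the 52 arrays in turn (adjusted p up to 0.16, limma), and with no filter on spread (0.068). At 8 h the count was 2 without MycOFF exendin-4 replicate 1, MycOFF water replicate 1 or 3, or MycON water replicate 1. At 72 h it was 0 without MycOFF water replicate 3, and 1 without any of MycOFF exendin-4 replicate 1 or 3, MycOFF water replicate 1, MycON exendin-4 replicate 1 or 3 and MycON water replicate 3.

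Whether the MYC effect itself changed between times was tested with a moderated F over the 5 times. Ccnb2 passed (F = 9.96, adjusted p = 0.0057, limma), against 1.59% of all genes, and the other 8 did not, with Ccna2 at an adjusted p of 0.12 and Ccne1 at 0.14. The largest step of Ccnb2 was 3.04 ± 0.73 from 8 to 16 h (adjusted p = 0.083, limma), followed by -2.93 ± 0.74 to 32 h (0.13) and 2.29 ± 0.71 to 72 h (0.15). None of the 9 genes passed in any of the 4 steps between neighbouring times, against 0%, 0.0683%, 0.0455% and 0.531% of all genes. The count for the F test was 2 without MycOFF exendin-4 72 h replicate 2, MycON exendin-4 8 h replicate 2, MycON water 16 h replicate 2 or MycON water 72 h replicate 3.

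The change over time was also tested within each MYC state. In MycON islets Ccnb2 (F = 15.6, adjusted p = 4.9e-05), Ccna2 (F = 7.08, 0.0088), Ccne1 (F = 6.31, 0.015) and Cdk1 (F = 5.55, 0.026) changed over the 5 times in limma, against 7.48% of all genes. This test was added after the values were seen. Ccnd1 did not pass it (adjusted p = 0.089), but passed under array weights (0.012), quantile normalization (0.021) and the mean over probe sets (0.011), and without MycON water 8 h replicate 3 or 32 h replicate 2 (0.015 and 0.034). Ccne2 passed under array weights (0.031). Cdk1 missed the threshold under quantile normalization (0.051). In MycOFF islets none of the 9 passed, against 0.00759%, and none had an unadjusted p under 0.05. The Cdk1 call was lost without any of 6 MycON arrays, with adjusted p up to 0.083: exendin-4 4 h replicate 1 or 2, water 4 h replicate 1 or 2, water 16 h replicate 1 and water 32 h replicate 2.

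The same 5 genes passed the MYC comparison with each injection. With water they passed, against 5.59% of all genes: Ccne2 by 2.28 ± 0.38, Ccna2 by 1.88 ± 0.41, Cdk1 by 1.65 ± 0.40, Ccne1 by 1.30 ± 0.28 and Ccnb2 by 1.17 ± 0.33. With exendin-4 they passed against 5.79%: Ccne2 by 1.95 ± 0.36, Ccna2 by 1.93 ± 0.39, Cdk1 by 1.35 ± 0.39, Ccne1 by 1.17 ± 0.27 and Ccnb2 by 1.00 ± 0.31. The interaction did not pass for any of the 9 genes or for any gene tested (0%, with 250 genes at an unadjusted p under 0.05 in limma and none of the 9). For Ccne2 it was -0.33 with a 95% interval from -1.39 to 0.73, and for Ccna2 0.05 with an interval from -1.09 to 1.19. A MYC effect lower by 1 log2 unit with exendin-4 than with water lies within both intervals. An effect higher by 1 log2 unit lies within the interval of Ccna2 and outside that of Ccne2. The widest departure from 0 was that of Ccnd1, -0.93 ± 0.50, from a MYC effect of 0.69 ± 0.36 with water and -0.24 ± 0.34 with exendin-4 (adjusted p = 1.0, limma).

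At single times within a single injection, few calls were made. Ccne2 passed at 8 h with exendin-4 (3.25 ± 0.75, adjusted p = 0.017, against 1.36% of all genes), where its 3 MycON arrays lay between 2.74 and 3.24. Ccnb2 passed at 16 h with water (3.84 ± 0.80, adjusted p = 0.018, against 0.342%) and at 72 h with exendin-4 (2.55 ± 0.65, adjusted p = 0.044, against 1%). These are limma values of groups of 2 or 3 arrays, and no other gene of the 9 passed at any time within an injection. The remaining backgrounds with water were 0.751%, 0.25%, 0.478% and 0.0228% of all genes at 4, 8, 32 and 72 h, and with exendin-4 0.19%, 0.0835% and 0.326% at 4, 16 and 32 h. None of the 9 passed in the interaction at any of the 5 times, against 0% of all genes at each, and Ccnd1 at 32 h was the only 1 of the 9 with an unadjusted p under 0.05 (-2.84 ± 1.13, adjusted p = 1.0, limma).

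With exendin-4, Cdk1 and Ccnb2 lay close to the threshold. Ccnb2 had an adjusted p of 0.048, and its call was lost without 35 of the 52 arrays in turn, with adjusted p up to 0.15. Cdk1 was lost as well, leaving 3 genes, without any of 8 arrays: MycOFF exendin-4 4 h replicate 1 or 2, 8 h replicate 1 and 72 h replicate 1, and MycON exendin-4 4 h replicate 2, 8 h replicate 3, 16 h replicate 3 and 32 h replicate 2. With water, Ccnb2 was lost without any of 5 arrays (adjusted p up to 0.091): MycOFF 8 h replicate 1, 16 h replicate 3 and 72 h replicate 3, and MycON 16 h replicate 1 and 32 h replicate 3.

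Exendin-4 itself moved none of the 9 genes past the threshold. Without MYC it did so for 0.228% of all genes and with MYC for 0.0683%, and none of the 9 had an unadjusted p under 0.05 in either. Without MYC, Ccnd1 had the largest difference, 0.61 ± 0.34, with an interval from -0.09 to 1.30. Ccnd2 stood at -0.26 ± 0.47, Cdk4 at 0.44 ± 0.60 and Ccna2 at -0.05 ± 0.39. With MYC, Ccne2 had the largest, -0.46 ± 0.38, with an interval from -1.23 to 0.30. Changes of more than about 1 log2 unit from exendin-4 lie outside the intervals for Ccne1, from -0.49 to 0.59 without MYC and from -0.64 to 0.49 with MYC. For Cdk4 they do not, with an interval from -0.79 to 1.67 without MYC.

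The genes of S phase and mitosis varied together across arrays, and Cdk4 varied with 2 of the D-type cyclins. Over the 52 arrays, Cdk1 correlated with Ccna2 at r = 0.87 and with Ccnb2 at 0.80, and Ccna2 with Ccnb2 at 0.71. Ccne2 correlated with Cdk1 at 0.67, with Ccna2 at 0.65 and with Ccne1 at 0.63. These values hold the differences between groups, and around the group means they were 0.75, 0.70 and 0.36 for the first 3 pairs. Those of Ccne2 were lower around the group means, at 0.45 with Cdk1, 0.28 with Ccna2 and 0.06 with Ccne1. Cdk4 went with Ccnd3 (r = 0.69, and 0.78 around the group means) and with Ccnd2 (0.51 and 0.55), and hardly with Cdk1 (0.08) or Ccna2 (0.10). The arrays share groups and their quality, so these are descriptions with no test.

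The genes nearest to each in pattern over the 52 arrays were found among all genes tested. For Cdk1 they were Birc5 (r = 0.93), Prc1 (0.91) and Ncapd2 (0.91). For Ccna2 they were Pbk (0.93), Top2a (0.92) and Cks2 (0.91), and for Ccnb2 Knstrn (0.90), Kntc1 (0.86) and Nusap1 (0.86). For Ccne2 they were Usp1 (0.87), Hells (0.86) and Rpa2 (0.85), and for Ccne1 Pold2 (0.76), Lsm3 (0.74) and Bola2 (0.74). For Cdk4 they were Txn2 (0.84), Snd1 (0.81) and Mettl1 (0.81), and for Ccnd2 Dap3 (0.84), Asns (0.82) and Cct7 (0.82). Ccnd3 was nearest to Tbrg4 (0.81), Syngr2 (0.79) and Exosc4 (0.78). Ccnd1 had no close neighbour, with Otud4 (0.60), Msl2 (0.60) and Eny2 (0.59) at the top.

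The genes of other proteins that act on these kinases were read from lists in the same averaged MYC comparison. In that comparison 15.4% of all genes passed in either direction. Of 6 kinase activators and partners tested, 5 rose and none fell, with a median of 0.85. Among them were Cks2 (2.09 ± 0.34) and Cks1b (1.13 ± 0.17), small subunits that bind the kinases, and Cdc25a (0.75 ± 0.11), the phosphatase that activates them. Of 8 genes in a mixed list, of kinase brakes and of ligase parts that destroy cyclins or inhibitors, 5 rose and none fell, with a median of 0.84. Skp2 (1.49 ± 0.29), part of the ligase that destroys the inhibitor p27, Ube2c (1.14 ± 0.18), which works with the anaphase-promoting complex, and Wee1 (0.53 ± 0.11), the kinase that inhibits Cdk1, were the 3 with the smallest p.

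The inhibitors of cyclin-dependent kinases moved both ways. Of 7 tested, 2 rose and 2 fell, with a median of 0.30. Of all genes tested, 15.4% passed in either direction and 9.93% were higher. Cdkn1b (p27) fell by 0.84 ± 0.28 (adjusted p = 0.040, limma) and Cdkn2b (p15) fell by 0.90 ± 0.12 (1.1e-06). Cdkn2a, the locus of p16 and p19ARF, rose by 0.66 ± 0.13 (3.9e-04) and Cdkn1a (p21) by 1.00 ± 0.35 (0.045). Of 12 genes of the RB and E2F family, 4 rose and none fell, with a median of 0.17: Tfdp1 (1.16 ± 0.18), the dimer partner of E2F, E2f7 (1.04 ± 0.27) and E2f8 (1.10 ± 0.31), which repress E2F targets, and Rbl1. E2f1 stood at 0.16 ± 0.21 and Rb1 at 0.08 ± 0.13, neither past the threshold.

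Of 12 other cyclins tested, none rose and 2 fell: Ccni by 0.70 ± 0.16 and Ccnt1, the cyclin of the transcription elongation kinase Cdk9, by 0.34 ± 0.12. Their median was -0.04, and the share that passed was near the 15.4% of all genes. None of 15 other cyclin-dependent kinases passed, with a median of 0.10, and Cdk2, the usual partner of cyclins E and A, stood at -0.09 ± 0.07. All 4 proliferation markers rose: Pcna (2.13 ± 0.24), Top2a (1.84 ± 0.33), Mki67 (1.64 ± 0.38) and Mcm2 (1.60 ± 0.32).

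**Figure D5:**
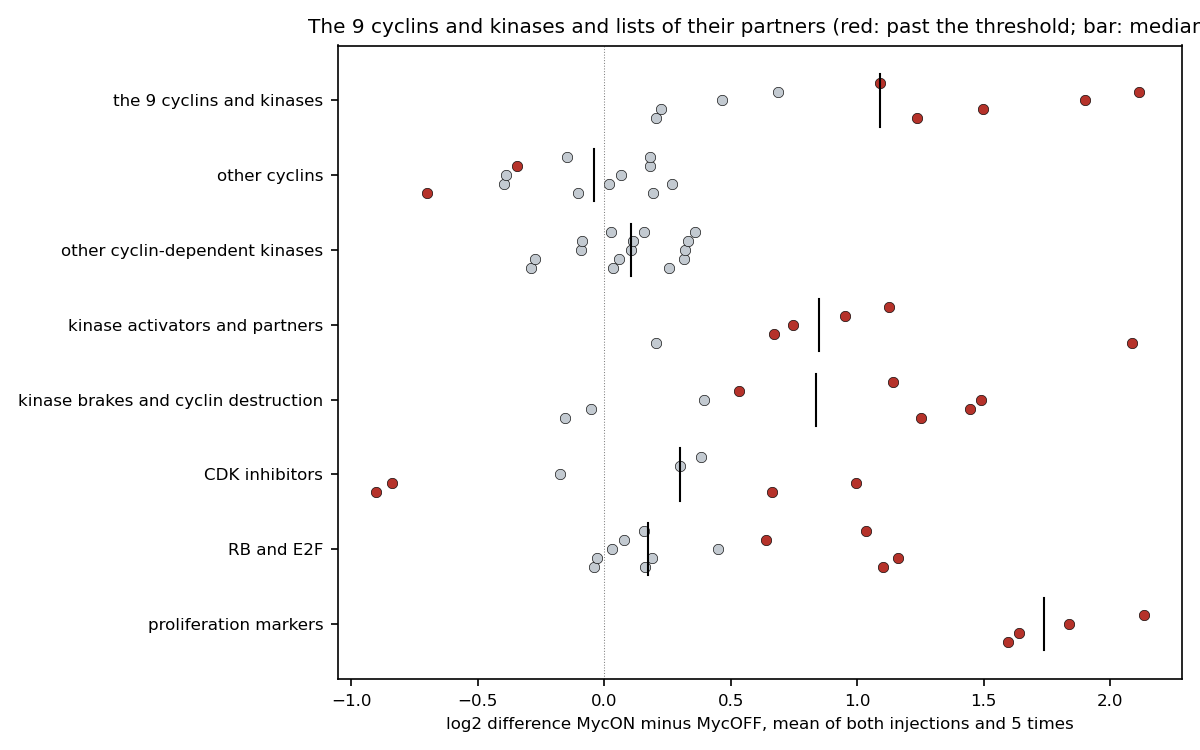
Log2 difference MycON minus MycOFF averaged over both injections and the 5 times (x axis) for each gene of the 9 cyclins and kinases and of 7 lists of their partners (y axis), with genes past the threshold in red and a bar at the list's median. The medians of activators (0.85) and brakes (0.84) lie near that of the 9 genes (1.09), while those of the other cyclins (-0.04) and other kinases (0.10) lie near 0.

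Macrophage markers differed with the MYC state as well. Of 8 macrophage markers, 6 were higher in MycON islets and none lower, with a median of 0.90. Of all genes tested, 15.4% passed in either direction and 9.93% were higher. Among the 8 markers, Cd68, a lysosomal protein of macrophages, had the smallest p (2.06 ± 0.27). The mean of the 8 per array ran from -1.64 to 0.61 in MycOFF arrays and from -1.10 to 3.71 in MycON arrays. At 72 h it was 2.11, 1.82 and -0.15 for water and 2.90, 2.58 and 3.71 for exendin-4. In the same order, Ccna2 read 0.69, 0.49 and 3.73 for water and 2.71, 1.66 and 1.55 for exendin-4. At 16 h the mean was -0.70 and 1.32 for water and 2.75 and 0.06 for exendin-4, where Ccna2 read 4.77, 2.09, 1.22 and 3.09. None of the 8 stromal markers passed in the averaged comparison (median 0.34). At 72 h 1 of them passed, against 1.38% of all genes. This was Lum, a collagen-binding matrix protein, higher by 1.76 ± 0.41 (adjusted p = 0.019, limma). All 8 lay above 0 at 72 h, with a median of 0.83. The stromal mean at 72 h was 2.17, 1.74 and -0.83 in MycON arrays with water and 1.58, 1.30 and 2.78 with exendin-4. Among MycOFF arrays of that time it was -0.40 and 0.57 (water), and for exendin-4 it was 0.14, 3.29 and -0.64. The part of macrophage and stromal cells in the cyclin values, those of Ccnb2 and Ccna2 at 72 h among them, was not tested.

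The 8 beta cell markers included 3 that fell and none that rose, with a median of -0.32. None of 8 acinar, 5 other endocrine, 3 duct or 3 lymphoid markers passed, with medians of 0.43, 0.00, 0.15 and 0.41. The part of the beta cell and other markers in the results was not tested. Of 5 endothelial markers 1 fell, and of 7 skin and muscle markers 1 fell, shares near the 15.4% of all genes that passed. MycOFF exendin-4 72 h replicate 2, the MycOFF array with high Ccna2 and Cdk1, had a stromal mean of 3.29 and a lymphoid mean of 1.36. Because the values are centred, a marker at 0 is not an absent marker. Without this array and MycOFF exendin-4 16 h replicate 3, the averaged MYC comparison again gave 5 of the 9 genes.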

How the data were processed

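Islet RNA was measured on 60 Affymetrix arrays, of which the submitters kept 52. The deposited values are log2 expression values, each probe set centred on its median over the 60 arrays (100% of probe sets, tolerance 1e-04). The log base was inferred from the range of the deposited values, -12.3 to 12.8. MAS5 and GCRMA are named, per the submitters' processing notes, with no role or version, and the steps before that are not stated.

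Probe sets with 1 symbol (34945 of 45101) were used, and those at or above the 40th percentile of interquartile range (0.101) were tested. The widest stood for each gene, which differs from a choice by level because centred values hold none. A model fitted by limma (3.58.1; R 4.3.3) held 20 group means and was moderated by eBayes (residual df 32, prior df 2.75). Benjamini-Hochberg adjustment ran over 13176 genes within each contrast, at a threshold of 0.05. The fit was tested on simulated data. Motifs were searched with pandas 2.3.3 and figures drawn with matplotlib 3.10.9. All 9 measured genes were named, with per-array values for those past the threshold, up to 3 genes per partner list with the smallest p past it, and the 3 nearest genes in pattern. E2f1, Rb1, Rbl1, Cdk2 and Mki67 were added for their roles, and Cdkn1a was also named beyond this rule. The members and lists were chosen with earlier results of these data known. The number of arrays limits the precision.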

Additional observations from a re-analysis of the deposited data

Results flagged for a closer look

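The MYC effect on Ccnb2 differed between times by its own test, with a moderated F of 9.96 (limma, adjusted p = 0.0057). The difference was 3.13 at 16 h and 2.49 at 72 h, and 0.09 and 0.19 at 8 and 32 h. No other of the 9 genes passed this test. The Ccnb2 call held when each of the 52 arrays was left out in turn (adjusted p from 2.1e-04 to 0.017, limma). It was lost with all 60 arrays (F = 4.14, adjusted p = 0.35, limma). Groups of 2 or 3 arrays were too small to check for outlying arrays within a group.

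The 8 arrays that the submitters left out entered no comparison, and in them 6 of the 9 genes had at least 1 value above the highest kept MycOFF array. The share of all genes with such a value was not counted, so these numbers cannot be read as particular to the cyclins. The SD within these 8 arrays ran from 0.968 to 1.39, and the widest kept array had 0.946. Ccnb2 reached 4.20, with 6 of the 8 above the highest kept MycOFF array of 1.41. The array at 4.20 is a MycOFF array, water 8 h replicate 2. Ccnd3 reached 2.61, with 7 of the 8 above 0.88. Ccna2 reached 3.10, Cdk1 2.49, Ccne1 2.40 and Ccne2 1.78, each with 1 of the 8 above. Ccnd2 read below 0 in all 8, from -2.52 to -0.22, and Ccnd1 and Cdk4 did not exceed the kept MycOFF arrays. Beta cell markers had means from -7.14 to -0.90 in these arrays and lymphoid markers from 0.22 to 7.10. The part of other tissue in the cyclin values of these arrays was not tested.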

How the results depend on the processing

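The averaged MYC comparison gave 5 of the 9 genes under array weights, quantile normalization, no filter, the mean over probe sets and the replicate block, and without any 1 array (5 to 5), and 4 with all 60 arrays. With all 60 arrays the counts were 1 with water, 3 with exendin-4, 2 at 8 h, 0 at 16, 32 and 72 h, 0 for the change of the MYC effect over time and 1 for the change over time with MYC, and Ccnd3 with water turned to -0.16. Array weights gave 2 genes at 16 h, 2 at 32 h, 6 for the change over time with MYC and 2 for the change of the MYC effect, and leaving out the 2 arrays of widest spread also gave 2 for that change. Quantile normalization gave 3 at 16 h, no filter and the mean over probe sets 1 at 72 h, no filter 3 at 8 h, and only the arrays compared 3 with exendin-4. With exendin-4 the count was 4 under quantile normalization, with no filter and without the 2 arrays of widest spread, and leaving out those 2 gave 3 at 72 h. The mean over probe sets gave 5 for the change over time with MYC. Leaving out each array gave 2 to 4 genes at 8 h, 1 to 5 at 16 h, 0 to 1 at 32 h, 0 to 3 at 72 h, 1 to 2 for the change of the MYC effect, 3 to 6 for the change with MYC, 4 to 5 with water and 3 to 5 with exendin-4. Ccnd3 with water ran from -0.00045 to 0.48. Over all genes, leaving out each array gave 161 to 314 calls for the change of the MYC effect. The calls over all genes ran from 642 to 1121 for the change with MYC, 496 to 839 with water and 505 to 894 with exendin-4. The cause of these shifts was not tested. Over all genes tested, the averaged MYC comparison called 2031, against 1073 with all 60 arrays. With all 60 arrays the calls over all genes also went from 737 to 177 with water, from 301 to 50 at 16 h and from 182 to 8 at 72 h. Array weights moved them from 301 to 67 at 16 h and from 436 to 1709 at 32 h. For the change over time with MYC, array weights gave 2245 genes in place of 985. So the counts over the 9 genes moved while those over all genes moved as well.

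The replicate block changed no count over the 9 genes. Over all genes it gave 686 with water in place of 737 and 158 at 72 h in place of 182. Of 22 pairs of same-numbered arrays, 5 had deviations correlated above 0.1 (median -0.085). Among 45 pairs of unlike number, 18 did (median 0.045). No shared deviation by number was seen, which cannot settle whether the numbers pair the arrays. Leaving out the 2 arrays of widest spread, and the change over time with MYC, were chosen after seeing the data.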
